A study of Homo sapiens with 9 samples.

Results

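Messenger RNA of the D cyclins CCND1, CCND2 and CCND3, the E cyclins CCNE1 and CCNE2, and the kinases they activate, CDK4, CDK6 and CDK2, was compared between 3 related human breast epithelial lines. The genes were chosen by symbol: 8 of the 62666 genes in the deposited tables carry these names, and all 8 were among the 17910 genes that passed a filter on low counts. The lines were MCF10A, MCF10AT1 and MCF10Ca1a, with 3 replicate libraries of polyadenylated RNA each and 9 in all. MCF10A is an immortalised, non-tumorigenic mammary line. MCF10AT1 is its premalignant derivative carrying an activated HRAS, and MCF10Ca1a is a malignant line derived from that one, so MCF10Ca1a carries the HRAS transgene too. The labels name no treatment of any sample. All lines grew in DMEM/F12 medium, to which cholera toxin (100 ng/mL), hydrocortisone (500 ng/mL), EGF (20 ng/mL) and insulin (10 µg/mL) were added. Horse serum was 5% for MCF10A and MCF10Ca1a but 2.5% for MCF10AT1, so serum and line cannot be told apart in any comparison with MCF10AT1. Each stage is represented by 1 line, and the labels do not say whether replicates were separate cultures, so p-values measure only the spread between these libraries.

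D cyclins are made in response to growth factors. With CDK4 or CDK6 they form kinases that phosphorylate the retinoblastoma protein RB1 and its relatives, which releases E2F transcription factors. E2F then drives the E cyclins, whose partner CDK2 carries the cell from G1 into S phase. In breast epithelium cyclin D1 is the D cyclin best known for its role in gland growth and cancer.

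CCND3 and CDK6 each have transcripts from an upstream and a downstream start site, and the results on their transcripts are given by these starts. The promoters of these 4 starts are therefore shown, from 250 bases before to 50 after the RefSeq start (GRCh38.p14, all on the minus strand, 5′ to 3′). Capitals mark 3 motifs searched on both strands, the GC box GGGCGG, the E-box CACGTG and the cAMP response element core TGACGT. Of 35116 promoters of this length, 45.0% held the GC box, 7.26% the E-box and 7.98% the cAMP response element core. RefSeq promoters were matched for 4 of the 8 genes (CCND3, CCNE1, CDK4 and CDK6).
CCND3 upstream start, chr6:42048639-42048938: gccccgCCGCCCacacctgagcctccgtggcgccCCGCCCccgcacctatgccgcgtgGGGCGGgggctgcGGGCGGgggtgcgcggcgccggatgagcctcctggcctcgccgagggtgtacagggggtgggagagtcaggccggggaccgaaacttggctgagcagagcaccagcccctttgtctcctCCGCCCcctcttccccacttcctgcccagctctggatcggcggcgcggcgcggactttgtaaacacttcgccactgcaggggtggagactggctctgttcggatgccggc
CCND3 downstream start, chr6:41941759-41942058: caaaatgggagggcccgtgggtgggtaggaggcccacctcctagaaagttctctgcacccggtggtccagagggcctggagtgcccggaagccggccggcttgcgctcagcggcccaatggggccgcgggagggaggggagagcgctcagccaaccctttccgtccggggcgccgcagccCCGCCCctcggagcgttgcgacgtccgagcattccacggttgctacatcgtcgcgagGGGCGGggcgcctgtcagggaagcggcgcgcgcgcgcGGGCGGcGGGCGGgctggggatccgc
CDK6 upstream start, chr7:92836524-92836823: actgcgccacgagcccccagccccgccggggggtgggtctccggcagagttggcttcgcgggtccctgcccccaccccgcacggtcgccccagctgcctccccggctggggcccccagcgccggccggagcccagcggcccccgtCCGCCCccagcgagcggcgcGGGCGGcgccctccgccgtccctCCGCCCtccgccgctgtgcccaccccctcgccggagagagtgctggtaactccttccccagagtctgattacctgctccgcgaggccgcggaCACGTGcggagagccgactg
CDK6 downstream start, chr7:92833910-92834209: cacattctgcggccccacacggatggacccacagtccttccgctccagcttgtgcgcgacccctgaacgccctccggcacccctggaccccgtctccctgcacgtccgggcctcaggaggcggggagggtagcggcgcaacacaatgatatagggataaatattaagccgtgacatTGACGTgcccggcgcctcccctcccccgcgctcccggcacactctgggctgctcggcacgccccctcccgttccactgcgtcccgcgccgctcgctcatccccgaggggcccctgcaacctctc
The CCND3 promoters held 5 GC boxes upstream and 4 downstream, and neither held either of the other motifs. The upstream CDK6 promoter held 3 GC boxes and 1 E-box, and the downstream one held only the cAMP response element core, 1 match. A further RefSeq start of CCND3, at 41939205, is not printed, since no transcript in the tables began within 400 bases of it. Its promoter held 0 GC boxes and 3 CpG dinucleotides. The 4 printed had more CpG dinucleotides, with 29 and 37 in the CCND3 pair and 37 and 29 in the CDK6 pair, in the order printed, against a median of 14 over all promoters. A match is a description of the letters, not a bound site.

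Library totals ran from 32.9 M to 69.5 M estimated counts. The MCF10Ca1a libraries reached at most 35.2 M and the others at least 62.9 M, so low genes were measured with fewer counts in MCF10Ca1a. No replicates agreed within sampling noise (lowest chi-square 2.46 per degree of freedom). Of 8 mammary epithelial markers all passed the filter, with summed levels of 1842 to 2559 TPM (transcripts per M, a level per length) in MCF10A, 2726 to 3095 in MCF10AT1 and 2230 to 2312 in MCF10Ca1a. Within that list the basal keratin KRT14 had 316, 65.7 and 6.26 CPM (counts per M counts, TMM-scaled) in the 3 lines, KRT5 2548, 3268 and 686, and the basal factor TP63 71.1, 49.0 and 78.3 CPM. The surface protein EPCAM had 30.3, 141 and 267 CPM and the adhesion protein CDH1 145, 145 and 749. The luminal keratins KRT8 (184, 849 and 661 CPM) and KRT18 (347, 835 and 856) and the receptor EGFR (374, 310.0 and 302) complete the list. The immune list summed to at most 33.1 TPM, with 4 of 5 genes at 3 counts or fewer (CD3E at 0 throughout) and CD68 making up nearly all of it. The endothelial list summed to at most 20.8 TPM, mostly PECAM1 in MCF10Ca1a, and the fibroblast list to at most 31.5 TPM, mostly DCN in MCF10AT1. The part of these markers in the results was not tested. In such bulk libraries, fewer cells of a type and less RNA per cell cannot be told apart.

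Differences were tested with edgeR's quasi-likelihood test over all 17910 genes, and a gene was called at a Benjamini-Hochberg adjusted p under 0.05. In MCF10AT1 against MCF10A, 7 of the 8 genes were called, where 61.6% of all genes tested were. Of these, 3 were higher (CCND1, CDK6 and CCNE2) and 4 lower (CCND2, CCND3, CCNE1 and CDK2), beside 29.8% and 31.8% of all genes. In MCF10Ca1a against MCF10AT1, 6 of 8 were called, all of them lower, where 78.4% of all genes were called, 38.0% higher and 40.3% lower. In MCF10Ca1a against MCF10A all 8 were called, beside 80.9% of all genes. There 7 were lower, beside 41.9% of all genes, and CDK6 alone was higher, beside 39.0%. A call by itself is thus common here. Called and at least 2-fold lower were 1 of 8 (CCND2) in MCF10AT1 against MCF10A, 2 of 8 (CCND3 and CCNE2) in MCF10Ca1a against MCF10AT1, and 5 of 8 (CCND2, CCND3, CCNE1, CCNE2 and CDK2) in MCF10Ca1a against MCF10A, beside 8.64%, 19.5% and 21.7% of all genes. CCND2 passed the filter on low counts only through MCF10A, where it was high, so the filter fixed its place in all counts against MCF10A. It is 1 of the 7 called and 1 of the 4 lower in MCF10AT1. In MCF10Ca1a against MCF10A it is 1 of the 8 called and 1 of the 7 lower. Of the other 7 genes the 2-fold counts hold 0, 2 and 4. Without CCND2, whose fold change rests on counts near 0, the median log2 change of the other 7 was -0.00, -0.86 and -1.15 in the 3 comparisons in this order, against -0.00, -0.04 and -0.05 for all genes tested. With CCND2 counted in, the median of the 8 was -0.12 in MCF10AT1 and -1.18 in MCF10Ca1a, both against MCF10A. CCND2 was the lowest of the 8 at its fitted value and at the bound of its counting interval. These medians could therefore not change between the fitted value and the bound, and they hold a gene placed by the filter. The comparisons share libraries, so they are not independent.

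**Figure D1:**
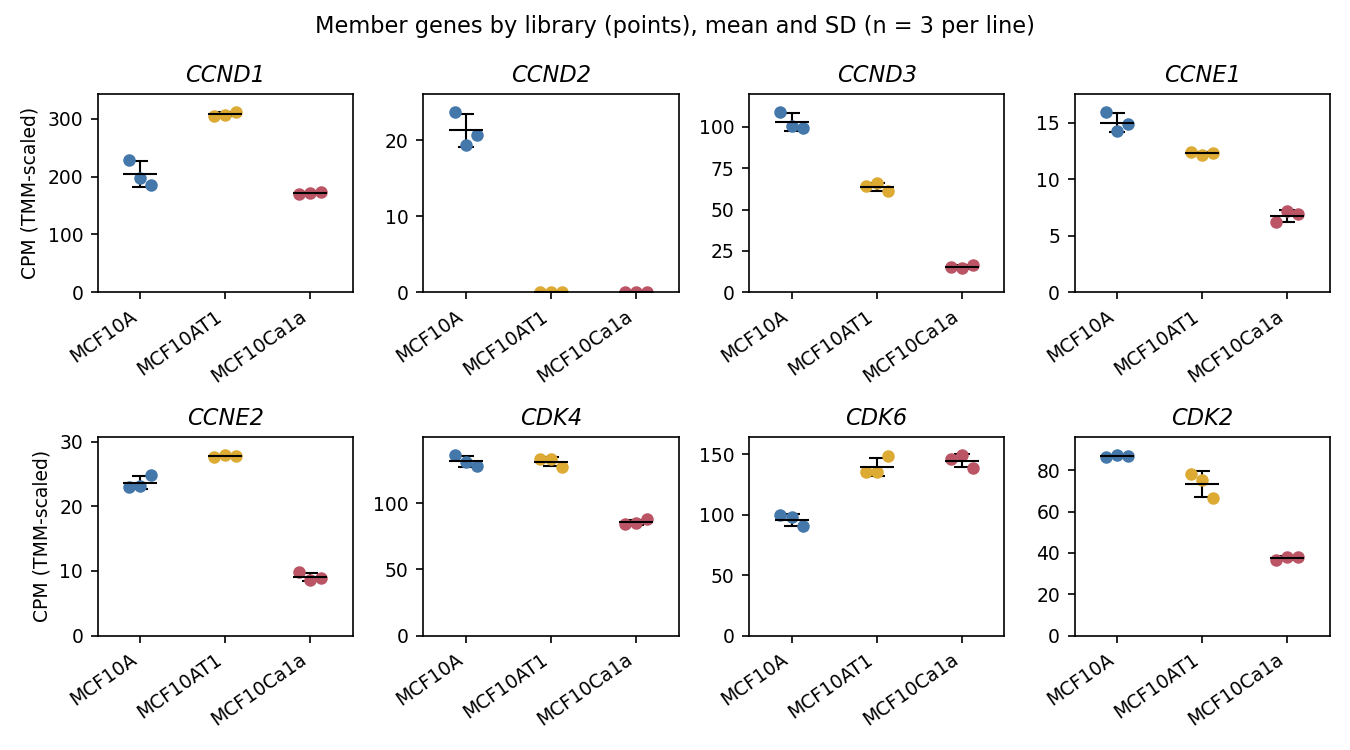
Level of each of the 8 genes in counts per M counts (CPM, vertical axis from 0, scaled by TMM) in the 3 lines (horizontal axis). Points are libraries, and black bars the mean and SD of 3. CCND3 steps down from 103 to 63.8 to 15.4 CPM, CCND2 is seen only in MCF10A, and CDK6 is lowest in MCF10A.

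**Figure D2:**
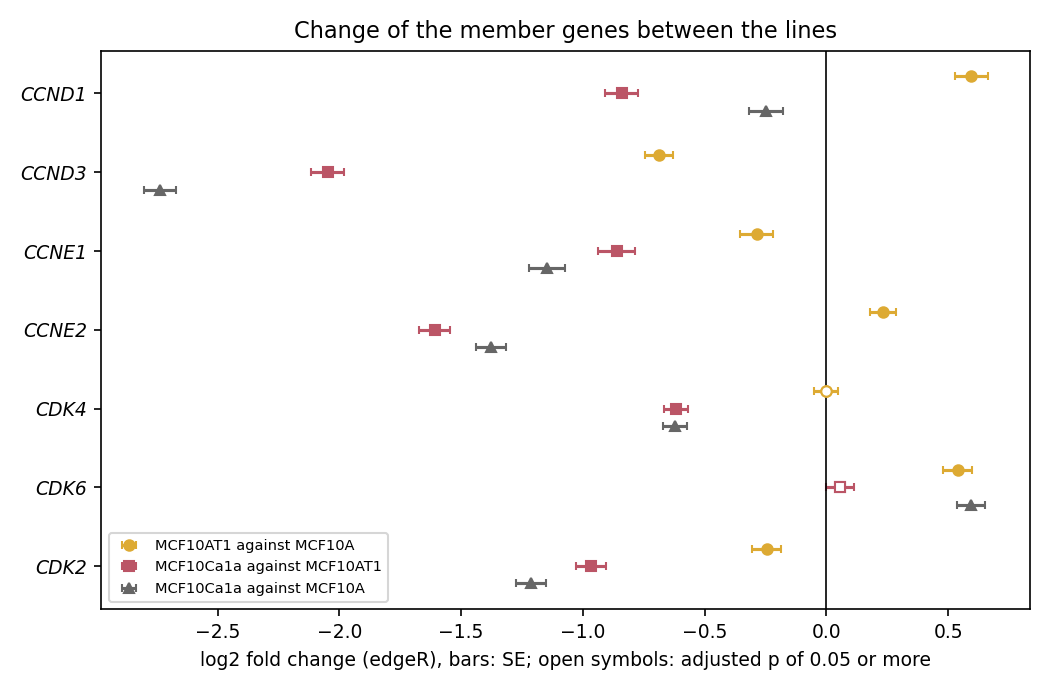
Log2 fold change of 7 genes in the 3 comparisons (horizontal axis, points with SE), CCND2 left out because 2 lines were near 0 counts. Open symbols are not called. In MCF10Ca1a against MCF10A every point lies below 0 except CDK6 at 0.59.

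CCND1, the cyclin D1 gene on chromosome 11 (69641087 to 69654474, plus strand, GENCODE 29), was highest in MCF10AT1. It had 229, 197 and 185 CPM in the MCF10A libraries, 305, 306 and 311 in MCF10AT1, and 170, 171 and 173 for MCF10Ca1a. No library of one line overlapped another line in CPM. CCND1 was 1.51-fold higher in MCF10AT1 than in MCF10A (log2 0.59, SE 0.07, edgeR adjusted p 4.43e-06) and fell 1.79-fold from there to MCF10Ca1a (log2 -0.84, SE 0.07, adjusted p 5.52e-08). Between the end points it was 1.19-fold lower in MCF10Ca1a (log2 -0.25, SE 0.07, adjusted p 0.00419). That small difference was not called in every fit. In TPM the MCF10A libraries (62.8 to 86.5) enclosed those of MCF10Ca1a (66.0 to 68.3), and limma on log2(TPM + 1) gave -0.12 with an adjusted p of 0.277, while edgeR with TMM on the deposited scaled counts gave -0.28 (adjusted p 0.0039).

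CCND3, a D cyclin best known from blood cells, fell at both steps. It lies on chromosome 6 (41934933 to 42050357, minus strand). The libraries gave 109, 100.7 and 99.0 CPM in MCF10A, 64.1, 66.1 and 61.3 in MCF10AT1, and 15.0, 14.5 and 16.7 for MCF10Ca1a. The 3 lines did not overlap. The change was 1.61-fold at the first step (log2 -0.69, SE 0.06, adjusted p 2.28e-07) and 4.14-fold at the second (log2 -2.05, SE 0.07, adjusted p 4.14e-12), which makes 6.67-fold in MCF10Ca1a against MCF10A (log2 -2.74, SE 0.07, adjusted p 1.87e-13). Apart from CCND2 this was the largest fall among the 8 genes.

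CCND2, the remaining D cyclin, was counted in MCF10A and nearly absent from the other lines. It had 1522, 1257 and 1449 counts in the MCF10A libraries, 0, 1 and 0 in MCF10AT1, and 1, 0 and 0 for MCF10Ca1a. Scaled for depth, MCF10A was 4151 times MCF10AT1 (95% exact counting interval 745 to 163986) and 2232 times MCF10Ca1a (400.4 to 88188), intervals that cover counting error only. Both derived lines were at or under the 3 counts taken as a floor, so they are not set against each other.

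The level of CCND2 itself is uncertain, because another annotated gene, AC008012.1, overlaps it on the same strand (chromosome 12, 4273762 to 4405490, spanning both CCND2 at 4273772 to 4305350 and its neighbour TIGAR). Reads of shared exons could have gone to either gene. AC008012.1 had 1098, 1343 and 1312 counts in MCF10A, 10, 17 and 4 in MCF10AT1, and 0 in each MCF10Ca1a library. The sum of both genes was nearly even over the MCF10A libraries, at 40.9, 40.2 and 39.6 CPM. It was 245 times the MCF10AT1 level (173 to 358, counting error only). The MCF10AT1 libraries spread more widely, with 10, 18 and 4 summed counts, and without replicate 2, left out after seeing the data, the ratio was 369. In MCF10A the sum was 4214 times that of MCF10Ca1a (756 to 166473). The direction is thus the same for both genes, while the ratio in MCF10AT1 depends on which gene the reads belong to. TIGAR, the fructose bisphosphatase gene just downstream, went another way, at 30.5 CPM in MCF10A, 53.7 in MCF10AT1 and 17.5 in MCF10Ca1a. Of 11 other genes tested within 500 kb of CCND2, AC008012.1 left out, 4 were higher and 3 lower in MCF10AT1 than in MCF10A (29.8% and 31.8% of all genes). In MCF10Ca1a against MCF10A 0 were higher and 8 lower (39.0% and 41.9% of all genes).

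Opposite-strand neighbours overlap several of the other genes. The library kit marks strand, but whether the quantification used it is not given in the sources used here. TSPAN31 over CDK4 had 20.3, 18.6 and 8.72 CPM in the 3 lines, less than CDK4 in each, and MARCH9 there had 3.58, 7.06 and 9.95 CPM. PMEL over CDK2 had 0.249 CPM in MCF10A and 3.61 in MCF10Ca1a. INTS8 beside CCNE2 had 56.7, 52.3 and 49.6 CPM, above CCNE2 in each line, and NDUFAF6 there had 20.4, 24.1 and 9.92 CPM. LTO1 over CCND1 had 15.8 to 16.9 CPM. The part of these neighbours in the results was not tested.

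CCNE1 and CCNE2 encode the E cyclins, the activating partners of CDK2. CCNE1 (chromosome 19, 29811898 to 29824308) fell at both steps, with 15.95, 14.3 and 14.9 CPM in MCF10A, 12.4, 12.2 and 12.4 in MCF10AT1, and 6.20, 7.22 and 6.91 for MCF10Ca1a. The lines did not overlap. It was 1.22-fold lower in MCF10AT1 than in MCF10A (log2 -0.29, SE 0.07, edgeR adjusted p 0.00205) and 2.22-fold lower in MCF10Ca1a (log2 -1.15, SE 0.07, adjusted p 3.94e-09).

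CCNE2 (chromosome 8, 94879770 to 94896678) was slightly higher in MCF10AT1 and then fell more than CCNE1. The libraries held 23.0, 23.2 and 24.9 CPM in MCF10A, 27.7, 27.9 and 27.8 in MCF10AT1, and 9.78, 8.65 and 8.88 for MCF10Ca1a. From MCF10AT1 to MCF10Ca1a it fell 3.05-fold (log2 -1.61, SE 0.06, edgeR adjusted p 2.27e-11), and it was 2.60-fold lower in MCF10Ca1a than in MCF10A (log2 -1.38, SE 0.06, adjusted p 7.77e-11). The rise in MCF10AT1 was 1.17-fold (log2 0.23, SE 0.05, adjusted p 0.00215). It was not called by limma on log2(TPM + 1), which gave 0.09 with an adjusted p of 0.277, but was by edgeR on the deposited scaled counts (0.22, adjusted p 0.0145).

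CDK4, a kinase partner of the D cyclins, did not differ detectably between MCF10A and MCF10AT1. It lies on chromosome 12 (57747727 to 57756013). The values were 136, 131 and 128 CPM in MCF10A against 134, 134 and 128 in MCF10AT1, which overlapped (log2 -0.00, SE 0.05, edgeR adjusted p 0.976, with a sign that changed between settings). In MCF10Ca1a it had 84.1, 85.1 and 87.9 CPM, below every library of the other lines, and was 1.54-fold lower than in MCF10A (log2 -0.62, SE 0.05, adjusted p 3.63e-08).

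CDK6, the alternative partner of the D cyclins, moved the other way. It lies on chromosome 7 (92604921 to 92836594). It had 99.7, 97.9 and 90.4 CPM in the MCF10A libraries, 135, 135 and 148 in those of MCF10AT1, and 147, 149 and 139 for MCF10Ca1a. MCF10A was below both other lines, which overlapped each other. CDK6 was 1.45-fold higher in MCF10AT1 (log2 0.54, SE 0.06, edgeR adjusted p 2.66e-06) and 1.51-fold higher in MCF10Ca1a (log2 0.59, SE 0.06, adjusted p 4.15e-07) than in MCF10A. The second step was not called (log2 0.05, SE 0.06, adjusted p 0.405). In TPM, MCF10Ca1a (28.0 to 30.1) lay above MCF10AT1 (22.03 to 23.5) without overlap, and limma on log2(TPM + 1) called a rise of 0.34 (adjusted p 0.00225), on a scale where the median of all genes itself stood at 0.13. With edgeR on the deposited scaled counts it was not called (0.07, adjusted p 0.257).

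CDK2, the kinase of the E cyclins, fell in the malignant line. On chromosome 12 (55966769 to 55972784), it had 86.4, 87.2 and 86.9 CPM in MCF10A, 78.0, 75.5 and 66.3 in MCF10AT1, and 36.3, 37.8 and 38.2 for MCF10Ca1a. The lines did not overlap, and MCF10AT1 varied most. The fall was 1.19-fold at the first step (log2 -0.25, SE 0.06, edgeR adjusted p 0.00236) and 1.96-fold at the second (log2 -0.97, SE 0.06, adjusted p 3.86e-09). In MCF10Ca1a against MCF10A it came to 2.32-fold (log2 -1.21, SE 0.06, adjusted p 2.70e-10).

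With CCND2 left out, since the filter fixed its place, 6, 6 and 7 of the other 7 genes were without overlap between lines in the comparisons MCF10AT1 against MCF10A, MCF10Ca1a against MCF10AT1 and MCF10Ca1a against MCF10A, beside 65.4%, 81.9% and 81.5% of all genes tested. Across the 9 libraries, the members most alike in pattern were CCNE1 and CDK2, whose log2 CPM after centring differed by a root mean square of 0.0927.

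Levels of different genes can be compared only per length, so TPM was used for order and shares. CDK4 had the highest level in every line, at 133 ± 14.1 TPM (SD, n = 3) in MCF10A, 118 ± 3.31 in MCF10AT1 and 94.7 ± 1.42 in MCF10Ca1a. In MCF10A the order went on with CCND3 (79.7 ± 10.0 TPM), CCND1 (73.2 ± 12.1) and CDK2 (62.0 ± 4.42), where each overlapped the next. CCNE2, CDK6, CCNE1 and CCND2 followed at 21.4, 17.4, 12.3 and 5.54 TPM without overlap. In MCF10AT1, CCND1 was second at 99.5 ± 0.656 TPM, CDK2 (47.6) overlapped CCND3 (43.9), and CCNE2 overlapped CDK6, both at 22.9 TPM. In MCF10Ca1a the order was CDK4, CCND1 (66.9 ± 1.23 TPM), CDK6 (29.3) overlapping CDK2 (28.7), CCND3 (12.6), CCNE2 (9.18) and CCNE1 (5.76). By mean TPM, CDK6 thus had rank 6 of the 8 in MCF10A and MCF10AT1 and rank 3 in MCF10Ca1a.

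**Figure D3:**
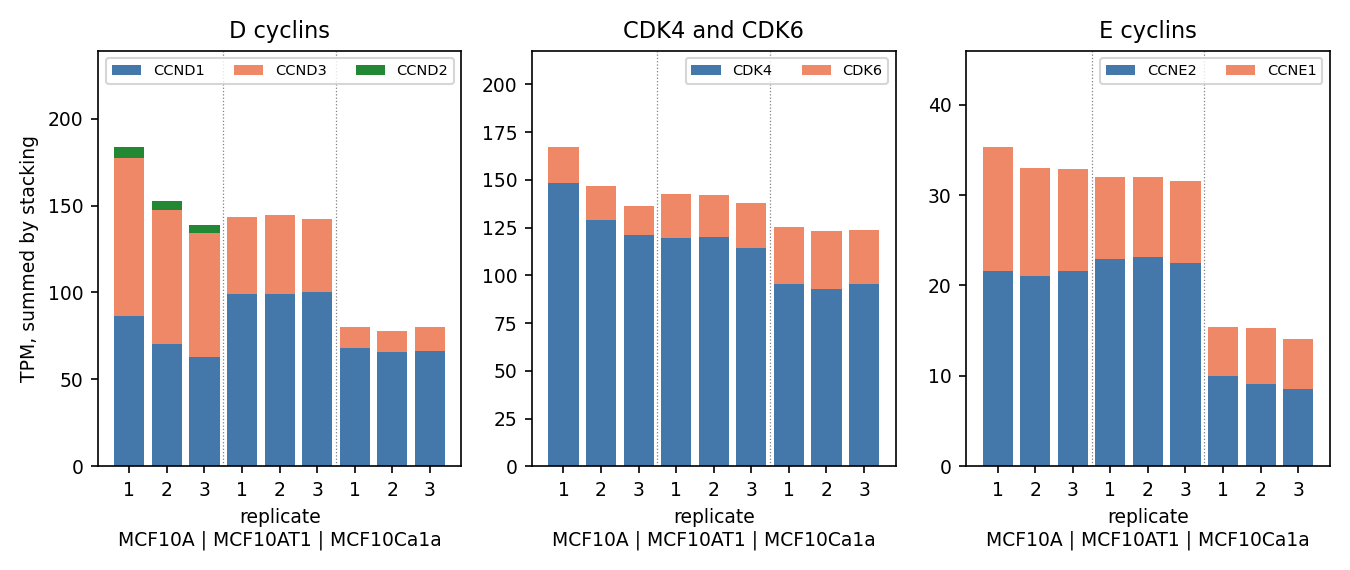
TPM of the D cyclins, of CDK4 and CDK6, and of the E cyclins in each library (stacked bars from 0, replicates 1 to 3 of each line in order along the horizontal axis). The D-cyclin bars reach 77.7 to 80.4 TPM in MCF10Ca1a, and CCND1 takes up most of each.

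CCND1 made up most of the D-cyclin TPM in both derived lines, while CCND3 came first in MCF10A. The CCND1 share of the summed TPM of the 3 genes was 46.1% in MCF10A, 69.4% in MCF10AT1 and 84.2% in MCF10Ca1a, while CCND3 made up 50.4%, 30.6% and 15.8%. The libraries of a line stayed close together: for CCND1 45.2% to 47.0%, 68.5% to 70.6% and 82.6% to 85.0%. CCND2 contributed 3.49% in MCF10A and at most 0.00968% in any library of the other lines. These shares hold only what was assigned to CCND2, and would be larger if reads of the overlapping AC008012.1 belonged to it.

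The D cyclins together summed to 158 ± 23.0 TPM (SD, n = 3) in MCF10A, 143 ± 1.32 in MCF10AT1 and 79.5 ± 1.57 in MCF10Ca1a, and the MCF10A libraries (139 to 184 TPM) enclosed those of MCF10AT1 (142 to 145). The E cyclins summed to 33.7 ± 1.40, 31.8 ± 0.259 and 14.9 ± 0.748 TPM. CDK4 with CDK6 summed to 150.2 ± 15.8, 141 ± 2.70 and 124 ± 1.04 TPM in the same order, with every MCF10Ca1a library below those of the other lines.

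CDK6 made up 11.6%, 16.2% and 23.6%, line by line, of the summed TPM of CDK4 and CDK6. CCNE2 made up 63.6%, 71.8% and 61.4% of the E cyclins. In 15 exact two-sided permutation tests of these shares between lines, 13 gave 0.10, the smallest p that 3 against 3 libraries allow, which is 0.115 adjusted over the 15. The exceptions were CCND2 between the derived lines (exact p 1) and CCNE2 in MCF10Ca1a against MCF10A (59.3% to 64.4% against 61.1% to 65.7%, exact p 0.30, adjusted 0.321). With 3 libraries a line, this test cannot pass 0.05.

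The tables list 84 transcripts of the 8 genes, of which 45 had enough counts for a test of their share (limma, on log2 of a transcript's count over that of the gene's other transcripts). The estimates split reads between similar transcripts, an uncertainty not used here. For CCND1, CCNE2 and CDK2, 1 transcript held most of the TPM in every line, with means from 95.6% to 96.5% for CCND1-201, 90.1% to 93.1% for CCNE2-201 and 84.8% to 86.0% for CDK2-201. CDK4 was spread over CDK4-201 (47.1% to 52.0%), CDK4-209 (18.2% to 20.2%) and CDK4-215 (12.7% to 14.0%). CCNE1-201 held 79.7% to 84.1%, with CCNE1-202 varying from 0% to 23.1% between libraries. CDK2-208 had mean shares of 7.67%, 7.69% and 10.2%. Shares were called changed for 1 transcript in MCF10AT1 against MCF10A, 6 in MCF10Ca1a against MCF10AT1 and 5 in MCF10Ca1a against MCF10A, where 1.68%, 14.0% and 18.9% of all transcripts tested were. The single one, named here after its values were seen, was CDK2-202, with 3.32% to 4.38% of CDK2 TPM in MCF10A and 0% in MCF10AT1 (limma adjusted p 0.0475). No transcript of the 8 genes was called there in 8 of the 9 fits that left out 1 library. Outside CCND3, CDK2-203, CDK2-204 and CCNE2-205 were called with a lower share in MCF10Ca1a than in either line. CDK4-202 was called higher there than in MCF10AT1. These too are named after their values were seen. The smallest limma adjusted p was that of CDK2-204 (0.00062 against MCF10AT1, 0.00084 against MCF10A), at a mean of 0.256% in MCF10A. No CDK6 transcript was called.

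In CCND3 the main transcript of the downstream start lost share in MCF10Ca1a. CCND3-203, which begins there, held 62.0%, 62.5% and 62.4% of CCND3 TPM in the MCF10A libraries and 61.0%, 62.9% and 63.0% in MCF10AT1. In MCF10Ca1a it held 33.9%, 40.2% and 39.5%, below every other library. The log2 ratio to the other CCND3 transcripts differed by -1.62 (SE 0.18, limma adjusted p 0.00186) from MCF10AT1 and by -1.67 (SE 0.18, adjusted p 0.00118) from MCF10A, and by -0.05 (adjusted p 0.9498) between those.

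CCND3-202 begins at 42048968, near the upstream RefSeq start but upstream of the whole promoter sequence printed for it. It held 24.3%, 27.9% and 16.8% in MCF10Ca1a against 0% to 2.40% in the other 6 libraries. Its ratio was called against MCF10AT1 (6.94, SE 1.71, limma adjusted p 0.0391) but not against MCF10A (4.19, adjusted p 0.140), and the first call was lost without any 1 of 7 of the 9 libraries (adjusted p up to 0.0939). The size of that ratio rests on the MCF10AT1 library at 0%: it was 4.70 without that library and 6.76 to 8.17 without any other, and 5.79 with 5 added to both counts. Against MCF10A it was called with 5 added to both counts (limma adjusted p 0.015), on TPM (0.00551) and without the MCF10AT1 library that had 0% (0.00117). CCND3-205, also upstream, had mean shares of 14.5%, 18.2% and 22.5%, and none of its differences was called. CCND3-213, upstream too, fell from 13.6% to 9.12% between MCF10A and MCF10Ca1a (log2 ratio -0.65, SE 0.17, limma adjusted p 0.0398). That call was near the threshold and was not followed through the alternative fits. In those fits the count of called transcripts in this comparison went as low as 2.

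Summed over all transcripts whose 5′ end lies within 400 bases of a RefSeq start, a grouping made after the transcript values were seen and given with no test, the upstream CCND3 start had 26.0 ± 3.70, 14.6 ± 0.645 and 7.27 ± 0.589 TPM (SD, n = 3) in MCF10A, MCF10AT1 and MCF10Ca1a. The downstream start had 51.9 ± 6.10, 28.7 ± 1.48 and 4.90 ± 0.695 TPM. Both starts had lower mean TPM in each later line. The upstream start gave 32.6% of CCND3 TPM in MCF10A and 33.2% in MCF10AT1. The 5′ ends are those of GENCODE 29, which holds CCND3-203 and CDK6-202 in other versions than the tables. In MCF10Ca1a the upstream start came first, with 57.9% ± 4.53 upstream and 38.8% ± 3.00 downstream.

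For CDK6 the downstream start had its largest shares in MCF10Ca1a, but no difference was called. CDK6-201, which begins there, held 42.8%, 31.99% and 42.8% of CDK6 TPM in MCF10Ca1a. In the other lines it ranged from 0% to 19.7% (MCF10A) and from 0% to 12.2% (MCF10AT1), so its estimate varied widely between replicates. For MCF10Ca1a the limma adjusted p was 0.233 against MCF10A and 0.263 against MCF10AT1. In levels, the downstream start had 1.06 ± 1.70, 1.12 ± 1.48 and 11.4 ± 1.63 TPM, and the upstream one, CDK6-202, 16.2 ± 3.41, 21.5 ± 1.96 and 16.8 ± 2.33 TPM. At the downstream start the lowest MCF10Ca1a library (9.62 TPM) stood above the highest of the other lines (3.03 TPM).

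**Figure D4:**
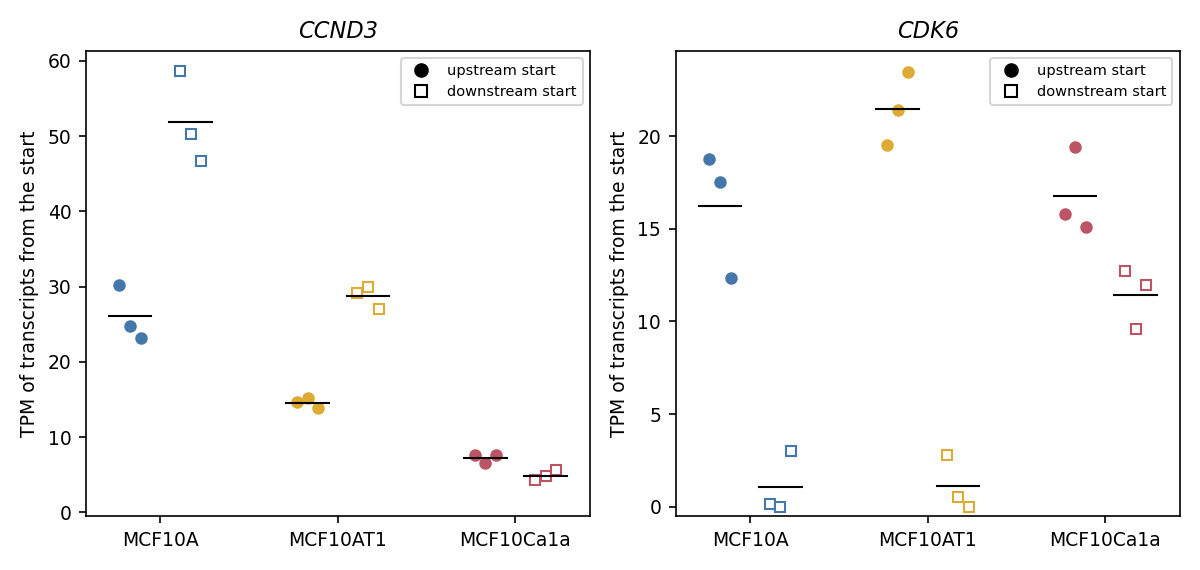
TPM of transcripts from the upstream (filled circles) and downstream (open squares) RefSeq start of CCND3 and CDK6, per library, with the mean as a black line. For CCND3 the downstream start goes from 51.9 to 4.90 TPM and below the upstream one. For CDK6 the downstream start is seen mainly in MCF10Ca1a, at 11.4 TPM.

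Genes most like each of the 8 in pattern were named by the smallest root mean square difference of centred log2 CPM over the 9 libraries, a description across all genes that passed the filter. CCND1 was followed by ETV4 (0.0502), an ETS factor, and TFAP2C (0.0644), an AP-2 factor. CCND2 was followed by SLC35G2 (0.144) and FLI1 (0.304), both likewise counted in MCF10A and at or near 0 in the other lines. For CCND3 they were CERK (0.0510), ceramide kinase, and SLC29A1 (0.0754), a nucleoside transporter. CCNE1 had KDSR (0.0509) and GINS4 (0.0535), a subunit of the replicative helicase. CCNE2 had CPNE3 (0.0386) and DERA (0.0571). CDK2 had ECT2 (0.0443), a cytokinesis factor, and SACM1L (0.0471). CDK4 had MRPL35 (0.0267) and CRCP (0.0275), and CDK6 had RILPL1 (0.0503) and EPB41L4B (0.0530).

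The shares of all genes called higher and lower, beside which every list count is read, were 29.8% and 31.8% in MCF10AT1 against MCF10A, 38.0% and 40.3% in MCF10Ca1a against MCF10AT1, and 39.0% and 41.9% in MCF10Ca1a against MCF10A. Of 7 inhibitors of these kinases, CDKN2A and CDKN2B were listed at 0 in all 9 libraries and MCF10A is known to lack that locus, while the other 5 were tested. In MCF10AT1 1 was higher and 4 lower than in MCF10A (29.8% and 31.8% of all genes), and in MCF10Ca1a 2 were higher and 3 lower against either line. CDKN1A, which encodes p21, was highest in MCF10AT1, at 360.2 CPM against 156 in MCF10A and 141 in MCF10Ca1a (log2 1.21, SE 0.06, edgeR adjusted p 5.06e-10, for the first step). CDKN1C, which encodes p57, was low throughout, with 1.05, 0.358 and 1.65 CPM. Within the INK4 group that binds CDK4 and CDK6, CDKN2C fell from 18.6 CPM in MCF10A to 13.9 and 1.85, and CDKN2D had 5.59 CPM in MCF10A, 4.78 in MCF10AT1 and 18.5 in MCF10Ca1a (log2 -3.33 and 1.73, MCF10Ca1a against MCF10A). In MCF10AT1 CDKN2D was called slightly lower than in MCF10A (log2 -0.22, edgeR adjusted p 0.024). CDKN1B, which encodes p27 and was chosen after its values were seen, fell at both steps (43.3, 26.6 and 13.5 CPM).

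Of 13 genes of the RB family and E2F with its DP partners, the first step raised 1 and lowered 9 (29.8% and 31.8% of all genes), with a list median of -0.35. The rise was E2F1 (log2 0.49, SE 0.06) and the largest fall RBL1, which encodes p107 (log2 -1.04, SE 0.07). In MCF10Ca1a against MCF10A 2 were higher and 10 lower (39.0% and 41.9% of all genes), with a median of -0.59. RBL2, which encodes p130, rose most (78.5 to 138 CPM, log2 0.82), and E2F2 fell most (10.1 to 1.60 CPM, log2 -2.66). In MCF10Ca1a against MCF10AT1 3 were higher and 8 lower (38.0% and 40.3% of all genes).

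Of 15 genes that E2F is known to drive at G1/S, 1 was higher and 8 lower in MCF10AT1 than in MCF10A, 14 were lower in MCF10Ca1a than in MCF10AT1, and all 15 were lower in MCF10Ca1a than in MCF10A, beside 41.9% of all genes. Their median was -1.33 in the last comparison, beside -1.15 for the 7 cyclin and kinase genes. TYMS, thymidylate synthase, fell most (147 to 18.8 CPM, log2 -2.97, SE 0.05). PCNA, the sliding clamp of replication, was the 1 that rose in MCF10AT1 (262 to 325 CPM, log2 0.31, SE 0.07).

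Of 7 later cyclins with CDK1, 5 were lower in MCF10Ca1a than in MCF10A and 1 was higher, beside 41.9% and 39.0% of all genes. That 6 of 7 were called is near the 80.9% of all genes. CCNB1, the mitotic cyclin B1, fell from 462 to 38.4 CPM (log2 -3.59, SE 0.06). CCNA1, an A cyclin best known from the germ line, rose from 2.94 to 26.2 and 52.8 CPM over the lines (log2 4.16, SE 0.07, MCF10Ca1a against MCF10A). The summed TPM of this list ran from 1249 to 1314 in MCF10A, 952 to 1026 in MCF10AT1 and 249 to 251 in MCF10Ca1a. Growth state was not measured, and its part in the levels of the 8 genes was not tested.

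Of 8 genes that activate these kinases or remove p27, 3 were higher and 4 lower in MCF10AT1 than in MCF10A (29.8% and 31.8% of all genes). All 8 were lower in MCF10Ca1a than in MCF10AT1, beside 40.3% of all genes. Against MCF10A, 2 were higher in MCF10Ca1a and 6 lower (39.0% and 41.9% of all genes). CCNH, a subunit of the CDK-activating kinase, rose most at the first step (34.1 to 58.6 CPM, log2 0.78, SE 0.06), and CDC25A, a phosphatase that activates CDK2, fell most at the second (47.1 to 20.3 CPM, log2 -1.22, SE 0.07). CKS1B, a cofactor in p27 removal, fell from 248 to 88.9 CPM between MCF10A and MCF10Ca1a.

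Of 11 genes of cyclin D and E turnover, 2 were higher, 3 lower and 6 not called in MCF10AT1 against MCF10A, where 61.6% of all genes were called. In MCF10Ca1a 4 were higher and 7 lower than in MCF10AT1 (38.0% and 40.3% of all genes), and 3 higher and 7 lower than in MCF10A (39.0% and 41.9%). USP2, a deubiquitinase of cyclin D1, rose at both steps from a low level, with 0.288, 1.94 and 6.06 CPM (log2 4.39, SE 0.16, between the end points). CRYAB, a cofactor of the FBXO4 ligase for cyclin D1, had 43 to 49 counts in the MCF10A libraries and 3 in each of MCF10Ca1a. AMBRA1, a ligase adaptor for D cyclins, fell most at the first step (log2 -0.42, SE 0.08).

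Transcription cyclins and their kinases share the protein fold but not the role in G1. Of 11, 3 were higher and 3 lower in MCF10AT1, and 6 higher and 2 lower in MCF10Ca1a, both against MCF10A, with a median of 0.19 in the latter. All genes stood at 29.8% and 31.8% in the former and 39.0% and 41.9% in the latter, so 8 of 11 called is near the 80.9% of all genes. CDK12, a kinase of RNA polymerase II, rose most in MCF10Ca1a (100.8 to 196 CPM, log2 0.96, SE 0.07), and CCNT2 fell most (48.3 to 34.4 CPM, log2 -0.49, SE 0.08). No test of the difference between the lists was made.

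**Figure D5:**
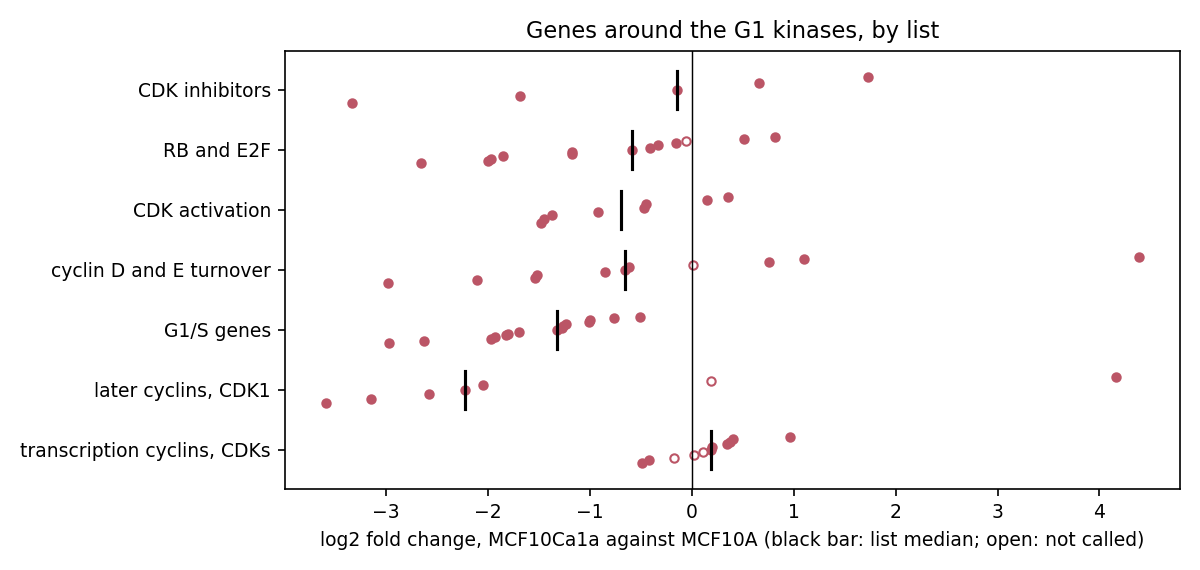
Log2 fold change of MCF10Ca1a against MCF10A (horizontal axis) for each tested gene of the 7 lists (rows). Filled points are called, open ones are not, and black bars are list medians. The 15 G1/S genes all lie below 0, with a median of -1.33, and CCNA1 and USP2 stand out above 4 on the log2 scale.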

How the data were processed

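Polyadenylated RNA of 3 lines was sequenced with a stranded kit, 3 libraries per line, per the labels' protocols. The deposited estimated counts and TPM values, per gene and per transcript, were made with Salmon on hg38, per the submitters' processing notes, without a version. The annotation release is not given in the sources used here. Gene positions are from GENCODE 29 on GRCh38, matched by unversioned identifier, and promoters from RefSeq (GRCh38.p14).

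Estimated counts were rounded and filtered with filterByExpr by line (minimum count 10, minimum total 15). The test was edgeR's quasi-likelihood test (edgeR 4.0.16, R 4.3.3) with TMM, all 9 libraries in 1 fit and Benjamini-Hochberg adjustment over all 17910 genes at 0.05. SEs come from the log2 fold change and its F statistic. Transcript shares used limma 3.58.1 on the log2 ratio of a transcript's count to the rest of its gene. On simulated data for MCF10AT1 against MCF10A, with 200 of 17416 genes changed by 1 on the log2 scale, edgeR recovered 141 (70.5%) with 8 false calls. The share test recovered 194 of 200 transcripts (97%) changed by 2 on that scale, among 72036 transcripts, with 10 false calls. The changed transcripts were drawn only from well-counted ones, and all transcripts were simulated with the same fixed spread. Calls on other transcripts of a changed gene were not counted as false. This recovery therefore does not measure the test on transcripts with few counts or a wide spread, such as those of CDK6.

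The 8 genes and the 7 lists were chosen with earlier results of these data known. Named were the 8 genes, the gene of each list with the largest called rise and fall per comparison, the 2 genes most like each of the 8, transcripts with a mean share of at least 10% in a line, and the marker genes. Counting intervals are exact at 95%. Counts of 3 or fewer were taken as the floor, and no count of 0 was replaced by it. The alternatives tried were another scaling (size factors of DESeq2 1.42.0) and its Wald test, all genes with a count, the deposited length-scaled and scaled counts, thinning, limma on TPM, the replicate number as a block, 2-line fits and each library left out.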

Additional observations from a re-analysis of the deposited data

How the results depend on the processing

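The counts of called members stayed at 6 or 7, 6 or 7 and 7 or 8 over all alternatives in the 3 comparisons, and leaving out each library in turn gave 7, 6 and 8. These counts include CCND2, whose place in both comparisons with MCF10A was fixed by the filter. The replicate block changed no call of a member, and the replicate numbers do not pair libraries (correlations of same-numbered deviations -0.0597 to 0.0451). On the TPM scale (limma on log2(TPM + 1) and log2(TPM + 0.1)) the median of all genes shifted by up to 0.21 in MCF10Ca1a against MCF10AT1, CDK6 was called there (0.34 and 0.35), and CCNE2 in MCF10AT1 against MCF10A and CCND1 in MCF10Ca1a against MCF10A lost their calls. edgeR on the deposited scaled counts changed none of these 3. CDK4 in MCF10AT1 against MCF10A, never called, changed sign with no filter (0.0108), thinning (0.0502), only the lines compared (0.0246) and left-out libraries (-0.0237 to 0.0233), and CDK6 in MCF10Ca1a against MCF10AT1 with no filter (-0.0345).

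Transcript shares were less stable. In MCF10AT1 against MCF10A the count was 2 with 5 added to both counts, 2 with at least 50 counts, 0 with the replicate block, and 0 to 1 with a library left out. In MCF10Ca1a against MCF10A it was 3 with the replicate block, up to 7 in the other alternatives, and 2 to 6 with a library left out. In MCF10Ca1a against MCF10AT1 it was 4 to 8, and 4 to 6 with a library left out. The CCND3-202 call was lost with the block (adjusted p 0.0622). In MCF10AT1 against MCF10A the log2 ratios of CDK6-201 (-0.0126 on TPM, -2.94 to 3.49 with a library left out), CDK6-202 (-2.53 to 2.39) and CCND3-203 (-0.0902 to 0.00202) changed sign without being called. CCND3-203 kept its calls in all 13 alternatives of either comparison with MCF10Ca1a. Paralog shares from the deposited scaled counts equalled those from TPM and are no independent check. Leaving out libraries for the list counts was added after seeing the data. It moved the count for transcription cyclins and kinases in MCF10AT1 against MCF10A from 6 to between 4 and 8, that for G1/S genes there from 9 to at most 11, and every other list count by at most 1. The causes of these changes were not tested. For CCND2, depth limits the size of the ratio, since the derived lines held 1 count each.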
